A study of Mus musculus with 7 samples.

Results

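The genes described here are 10 widely used markers of fat cells: Lpl, Fabp4, Angptl4, Adig, Adipoq, Plin1, Lep, Cfd, Cidec and Retn. They were chosen by symbol, not by their values, and all 10 were found among the 22552 gene symbols of the table. RNA was sequenced from sorted skin cells of mice on postnatal day 50, with 1 library in each of 7 groups. All mice carried the strain label CD1/C3H. Wild-type (WT, Wt/Wt) mice gave ear dermis, dorsal dermis, tail dermis, ear epidermis and dorsal epidermis. Mice with the genotype Wt/Koa gave ear dermis and ear epidermis. Koa is a dominant allele that carries a chromosomal inversion and gives hairy ears. The number of animals behind a library and the markers used for sorting are not given in the sources used here. With 1 library per group, no difference below could be tested or checked against replicates.

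White adipocytes store triglyceride in 1 large lipid droplet and release hormones into the blood. Lipoprotein lipase on capillary walls frees fatty acids from lipoproteins, binding proteins carry the fatty acids inside the cell, and perilipin and CIDE proteins coat and enlarge the droplet. Mouse skin has a layer of dermal white adipocytes beneath the dermal fibroblasts. Several of the 10 genes are also used outside adipocytes: Fabp4 by capillary endothelium and macrophages, Lpl by macrophages and muscle, and Angptl4 by many cells after fasting, low oxygen or glucocorticoid.

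The sequence just before the start of a gene is where transcription factors of adipocytes such as PPAR-gamma and the C/EBP proteins can act. RefSeq (GRCm38.p6) start sites were matched for 7 of the 10 members; Fabp4, Lpl and Angptl4 had no entry. The 250 bases before the start were searched on both strands for the direct repeat bound by PPAR with RXR (AGGTCA, any 1 base, then AGGTCA again), for a single AGGTCA, for TTGCGCAA (a core bound by C/EBP proteins), CCAAT and TATAAA. The single AGGTCA is contained in the direct repeat, and none of the other motifs contains another. The 3 members with a match are shown, with the matches in capitals, each in the 5′ to 3′ direction of its gene on the plus strand. The Adipoq stretch is chr16:23146286-23146535, the Lep stretch chr6:29059971-29060220 and the Adig stretch chr2:158502362-158502611.
Adipoq: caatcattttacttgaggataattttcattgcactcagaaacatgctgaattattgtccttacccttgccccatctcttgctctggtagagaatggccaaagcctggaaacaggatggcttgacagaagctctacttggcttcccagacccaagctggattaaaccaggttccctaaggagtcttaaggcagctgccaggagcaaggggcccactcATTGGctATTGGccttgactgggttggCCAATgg
Lep: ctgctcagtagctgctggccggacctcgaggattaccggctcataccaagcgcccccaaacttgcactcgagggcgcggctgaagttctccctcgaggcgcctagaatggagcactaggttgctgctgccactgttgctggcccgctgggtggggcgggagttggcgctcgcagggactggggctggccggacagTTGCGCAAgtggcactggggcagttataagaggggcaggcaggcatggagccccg
Adig: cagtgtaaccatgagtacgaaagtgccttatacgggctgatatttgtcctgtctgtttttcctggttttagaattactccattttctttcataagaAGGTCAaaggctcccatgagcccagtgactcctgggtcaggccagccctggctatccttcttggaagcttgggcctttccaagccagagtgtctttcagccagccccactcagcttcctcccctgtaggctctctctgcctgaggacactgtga

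The Adipoq stretch holds CCAAT at 3 places, the farthest beginning 34 bases before the start. CCAAT occurs in 34.5% of the 27025 stretches of this kind. The Lep stretch holds TTGCGCAA from 55 to 48 bases before the start, a motif found in 0.17% of all stretches. The Adig stretch holds AGGTCA once, from 154 to 149 bases before the start, as do 13.8% of all stretches. None of the 7 members held the direct repeat (0.037% of all stretches) or TATAAA (13%) in this window. A match is a description of the letters, not a binding site.

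Levels are in FPKM, which divides a gene's fragments by its length and by the library's mapped fragments, so levels can be compared between genes. A gene was compared where it reached 1 FPKM in at least 1 of 2 libraries, differences are on the log2(FPKM + 1) scale, and a difference of at least 1 is called past the size rule. The depth recovered from the low values lay between 3.16e+07 and 4.04e+07 fragments in 6 libraries. With it, FPKM was turned into approximate fragment numbers, and ratios carry exact 95% binomial intervals that cover counting error only. The tail library stands apart. All its values have at most 2 decimals, so its depth is unknown, and it lists 222 symbols at 0 that reached 10 FPKM or more in each of the other 6. Its Xist, an RNA of female cells, stood at 41.5 FPKM against at most 0.122 FPKM elsewhere. Ddx3y, a gene of the Y chromosome, was listed at 0 in the tail and stood between 33.1 and 38.3 FPKM in the other 6. Position and sex therefore cannot be told apart in any difference of the tail. The median of all compared genes lay at -0.51 between tail and ear dermis and at -0.48 between tail and dorsal dermis, so differences of the tail are to be read against that shift.

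The set split into 2 parts. Lpl, Fabp4 and Angptl4 stood above 1 FPKM in all 4 dermal libraries. The other 7 genes stayed under 1 FPKM there in 27 of 28 values, the exception being Adig in tail dermis. Adipoq, Plin1, Lep, Cfd, Cidec and Retn reached at most 0.662 FPKM in any of the 7 libraries. The genes most restricted to mature adipocytes were thus at or near 0 in the sorted dermal cells, while genes of lipid handling shared with other cells were well expressed. The dermal libraries did hold fibroblast RNA: Dcn, the fibroblast proteoglycan decorin, lay between 3675 and 7827 FPKM in them. They were not free of keratinocyte markers. The median basal keratinocyte marker reached 8% of its level in the matching epidermis in WT ear dermis, 11.6% in Koa ear dermis and 40.7% in dorsal dermis.

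**Figure D1:**
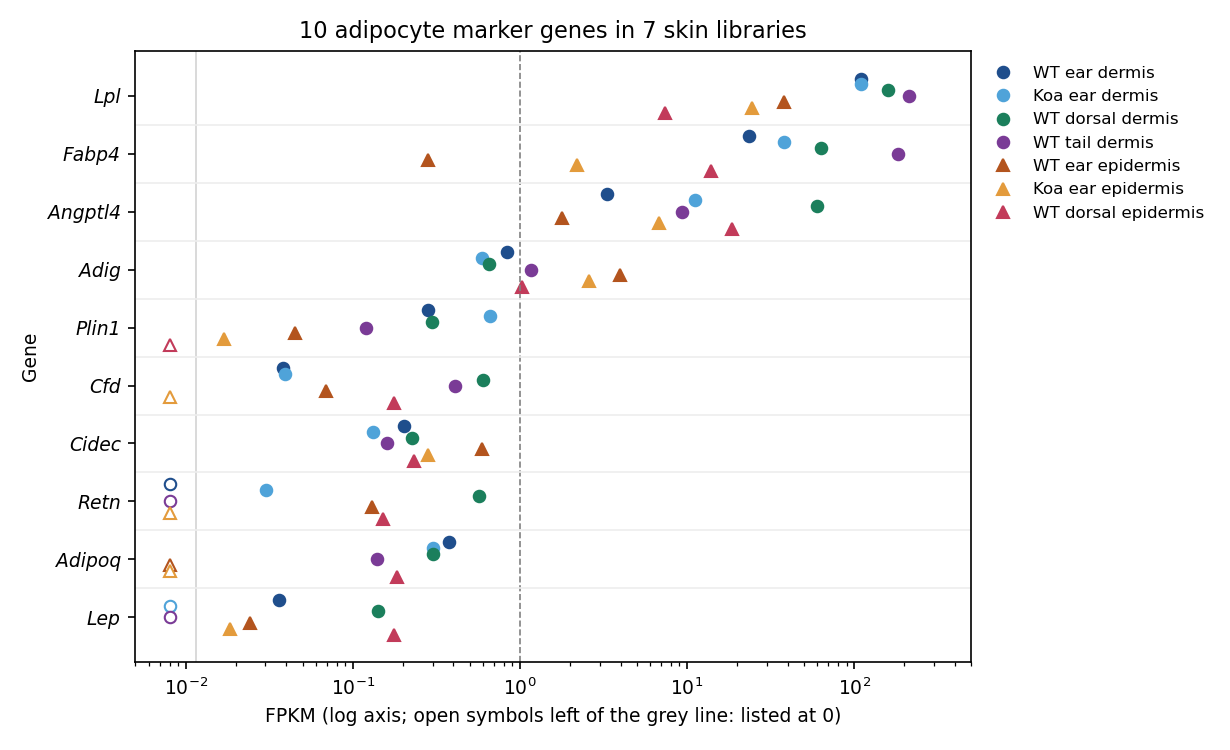
FPKM of each of the 10 genes (rows) in each of the 7 libraries (colours; circles are dermis, triangles epidermis) on a log axis, with a dashed line at 1 FPKM and open symbols for genes listed at 0. Lpl, Fabp4 and Angptl4 lie right of the line in all 4 dermal libraries, and Adipoq, Plin1, Lep, Cfd, Cidec and Retn lie left of it in all 7.

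Adipoq encodes adiponectin, the most abundant hormone of fat cells (chromosome 16, 23146536 to 23157968, GRCm38 as are all positions here). It stood at 0.374 FPKM in WT ear dermis, 0.301 in Koa ear dermis, 0.30 in WT dorsal dermis and 0.14 in WT tail dermis. These levels correspond to about 15, 11 and 10 fragments in the first 3 libraries. It was listed at 0 in both ear epidermal libraries and stood at 0.184 FPKM in dorsal epidermis, about 6 fragments. The ratio of dorsal to ear dermis was 0.803 (0.303 to 1.79), and that of Koa to WT ear dermis 0.804 (0.314 to 1.76). A difference between these dermal libraries was not detectable at this depth. In WT ear epidermis 0 fragments allow up to 0.0686 FPKM, and the level of WT ear dermis was 5.45-fold above that. This fold leaves out the counting error of the 15 dermal fragments.

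Lep encodes leptin, the satiety hormone of fat (chromosome 6, 29060221 to 29073876). It stood at 0.0360 FPKM in WT ear dermis, was listed at 0 in Koa ear dermis and tail dermis, and stood at 0.142 FPKM in dorsal dermis. In epidermis it stood at 0.0243 FPKM in WT ear, 0.0185 in Koa ear and 0.176 in dorsal skin. Both dorsal libraries were thus the highest, with about 14 fragments in dermis and 17 in epidermis against at most 4 in the other 4 libraries of known depth. The ratio of dorsal to ear dermis was 3.94 (1.24 to 16.5). Retn, the adipocyte hormone resistin (chromosome 8, 3655770 to 3659818), was listed at 0 in WT ear and tail dermis, stood at 0.0301 FPKM in Koa ear dermis and at 0.572 FPKM in dorsal dermis. Dorsal dermis held about 12 fragments, a level 4.6-fold above the 0.124 FPKM that 0 fragments allow in WT ear dermis. This fold leaves out the counting error of the 12 fragments. In epidermis Retn stood at 0.131 FPKM in WT ear, was listed at 0 in Koa ear and stood at 0.151 FPKM in dorsal skin.

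Cfd encodes adipsin, a complement protease secreted by fat (chromosome 10, 79890853 to 79892655). It stood at 0.0382 FPKM in WT ear dermis and 0.0391 in Koa ear dermis, 1 fragment each, at 0.601 FPKM in dorsal dermis and at 0.41 in tail dermis. Dorsal dermis held about 14 fragments, and its ratio to WT ear dermis was 15.7 (2.41 to 669), an interval this wide because the ear value rests on 1 fragment. In epidermis Cfd stood at 0.0688 FPKM in WT ear, was listed at 0 in Koa ear and stood at 0.176 FPKM in dorsal skin. Lep, Retn and Cfd were therefore each higher in dorsal than in ear dermis by more than counting error, at levels that all stayed under 1 FPKM. Counting error does not cover epidermal RNA in a dermal library, and Lep stood higher in dorsal epidermis (0.176 FPKM) than in dorsal dermis (0.142 FPKM). The part of epidermal RNA in these dermal levels was not tested. For Adipoq, Plin1, Cidec and Adig no difference between dorsal and WT ear dermis was detectable at this depth. Plin1 and Cidec stood slightly higher in dorsal dermis, and Adipoq and Adig stood lower. For each of them the ratio of dorsal to WT ear dermis had a counting interval that includes 1. These intervals rest on few fragments and reach well above 1. Whether these genes share the rise therefore cannot be told.

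Plin1 encodes perilipin, which coats the lipid droplet and guards it from lipases (chromosome 7, 79721164 to 79732904). It stood at 0.282 FPKM in WT ear dermis, 0.662 in Koa ear dermis, 0.298 in dorsal dermis and 0.12 in tail dermis. Koa ear dermis was the highest of all libraries, with about 40 fragments against 17 in WT ear dermis, a ratio of 2.35 (1.34 to 4.56). In epidermis Plin1 stood at 0.0448 FPKM in WT ear and 0.0170 in Koa ear, and was listed at 0 in dorsal skin. Cidec, a protein that fuses lipid droplets (chromosome 6, 113424634 to 113435760), stood at 0.202 FPKM in WT ear, 0.131 in Koa ear, 0.227 in dorsal and 0.16 in tail dermis. In epidermis it stood at 0.595 FPKM in WT ear, 0.283 in Koa ear and 0.232 in dorsal skin, so WT ear epidermis was the highest library. Among the dermal libraries with a known depth, Cidec ranged from 7 to 11 fragments, and the ratio of Koa to WT ear dermis was 0.651 (0.216 to 1.85).

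Adig encodes adipogenin, a small membrane protein of fat cells (chromosome 2, 158502612 to 158508198). It went against the dermal label: it stood at 0.834 FPKM in WT ear dermis, 0.591 in Koa ear, 0.649 in dorsal and 1.16 in tail dermis, but at 3.99 FPKM in WT ear epidermis, 2.57 in Koa ear epidermis and 1.03 in dorsal epidermis. The ratio of dermis to epidermis was 0.209 (0.108 to 0.389) in WT ear, 0.230 (0.101 to 0.5) in Koa ear and 0.629 (0.242 to 1.57) in dorsal skin. The deficit in dermis exceeded counting error in both ears and not in dorsal skin. Between epidermal libraries Adig was lower in dorsal than in WT ear skin, with a difference of -1.30 and a ratio of 0.259 (0.137 to 0.472).

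Lpl encodes lipoprotein lipase, which frees fatty acids from circulating lipoproteins (chromosome 8, 68880555 to 68906932). It was the highest of the 10 genes in every library but dorsal epidermis, where Angptl4 and Fabp4 stood above it. Its dermal levels were 111 FPKM in WT ear, 109.8 in Koa ear, 159 in dorsal and 212 in tail skin. Fabp4, a fatty acid carrier also known as aP2 (chromosome 3, 10204342 to 10208616), stood at 23.6 FPKM in WT ear, 37.9 in Koa ear, 63.0 in dorsal and 183 in tail dermis. Angptl4, a secreted inhibitor of lipoprotein lipase (chromosome 17, 33774900 to 33781575), stood at 3.33 FPKM in WT ear, 11.2 in Koa ear, 60.1 in dorsal and 9.39 in tail dermis. Tail dermis was thus highest for Lpl and Fabp4, and dorsal dermis for Angptl4. In tail dermis Lpl was the 331st and Fabp4 the 383rd of all symbols counted from the highest.

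**Figure D2:**
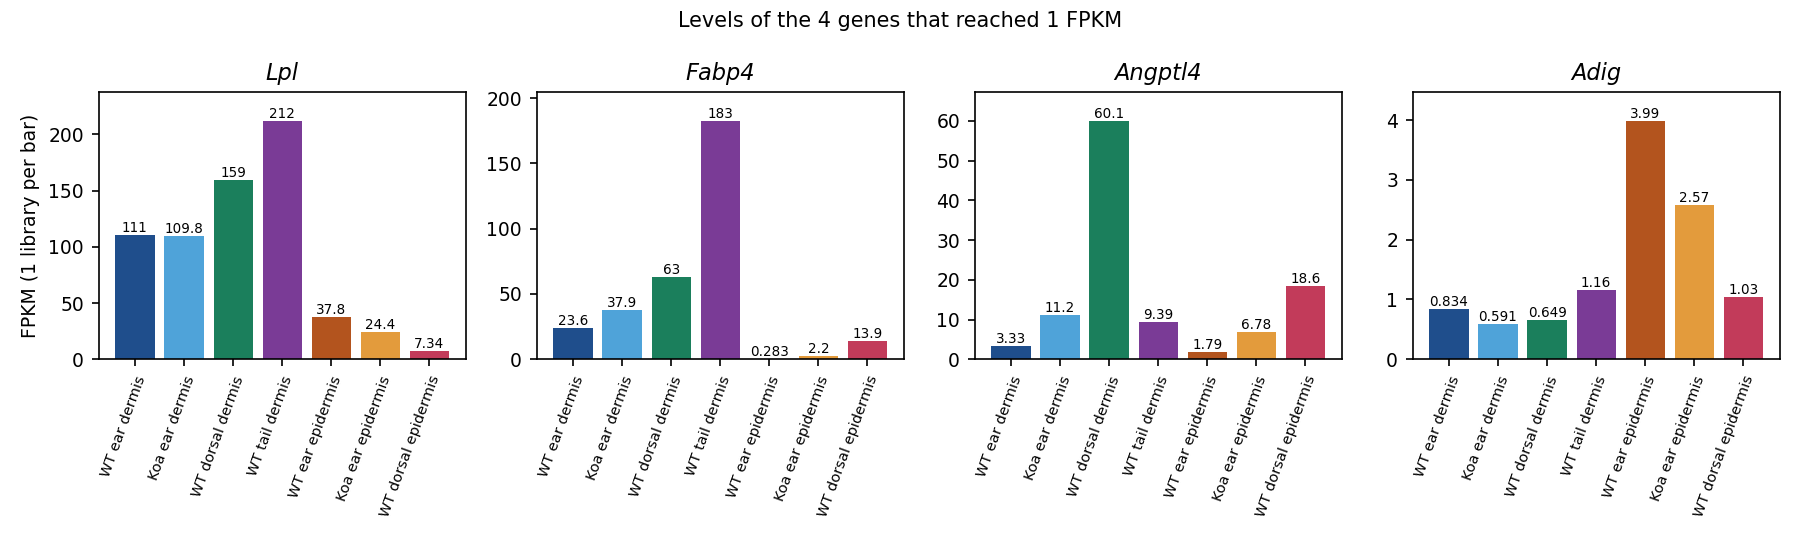
FPKM of Lpl, Fabp4, Angptl4 and Adig, 1 bar per library with its value, on axes that start at 0 and differ between panels. Lpl and Fabp4 were highest in tail dermis (212 and 183 FPKM), Angptl4 in dorsal dermis (60.1 FPKM) and Adig in WT ear epidermis (3.99 FPKM).

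The comparison of Koa with WT ear dermis asks what the allele changes in the skin that becomes hairy. Of the 10 members 3 were compared, and 1 passed the size rule, upward, where 2.78% of the 13690 genes compared did (1.71% upward and 1.07% downward). This was Angptl4, with a difference of 1.5 and a ratio of 3.37 (3.01 to 3.8). Fabp4 differed by 0.66, a ratio of 1.61 (1.45 to 1.79), within the size rule. Lpl differed by -0.01, a ratio of 0.993 with a counting interval (0.971 to 1.02) that includes 1. Markers of other cells differed beside this. Of the 8 basal keratinocyte markers 4 were past the size rule upward in Koa ear dermis, with a median difference of 1.01 and a summed level of 1937 against 780 FPKM. Of 7 suprabasal markers 4 were past it upward, with a median of 1.30 and a sum of 610.3 against 203 FPKM. Krt5, a keratin of basal keratinocytes, stood at 787 against 267 FPKM. Relative to the matching ear epidermis, the median basal marker stood at 11.6% in Koa and 8% in WT ear dermis. After these shares of epidermal RNA were taken off, Angptl4 differed by 1.45, with the median of all genes at -0.07. Endothelial markers summed to 39.8 FPKM in Koa and 34.5 in WT ear dermis, and macrophage markers to 1081 and 1452 FPKM. The part of these cells in the levels of Angptl4 and Fabp4 was not tested.

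Around the members, no gene of the adipogenic factors (11 compared), triglyceride synthesis (14), lipid droplet and lipolysis (12), fatty acid uptake (9), adipokines and receptors (11) or adipocyte progenitors (10) differed by 1 or more when Koa was set against WT ear dermis. The widest among the factors were Srebf1, a driver of lipid synthesis (36.9 against 50.9 FPKM), Cebpd, an early adipogenic C/EBP factor (18.3 against 13.2 FPKM), and Pparg, the receptor that commands adipocyte formation (8.96 against 11 FPKM). Cd36, a fatty acid transporter, stood at 15.4 against 24.9 FPKM. Lepr, the leptin receptor, stood at 35.0 against 19.6 FPKM, a difference of 0.81. Pi16, a marker of fibroblast progenitors, stood at 59.6 against 32.1 FPKM.

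Dorsal and WT ear dermis differed more. Of the 3 members compared, Fabp4 and Angptl4 passed the size rule upward and Lpl did not, against 18.8% of 14234 genes (11.7% upward and 7.05% downward). Angptl4 differed by 3.82, with a ratio of 18 (16.3 to 20.1). Fabp4 differed by 1.38, with a ratio of 2.67 (2.42 to 2.95), and Lpl by 0.52, with a ratio of 1.44 (1.41 to 1.47). The library also differed in what other cells it held: the median basal keratinocyte marker reached 40.7% of its level in dorsal epidermis, and all 10 stress and dissociation genes were past the size rule upward, with a summed level of 4882 against 426 FPKM. After subtraction of the keratinocyte share, with no rescaling, Angptl4 differed by 3.68 while the median of all genes moved to -0.78 and 11.4% of the genes past the size rule were higher. The part of the stress genes in these differences was not tested. Endothelial markers summed to 40.2 FPKM in dorsal and 34.5 in ear dermis, and macrophage markers to 1319 and 1452 FPKM. In such bulk libraries fewer cells of a type and less RNA per cell cannot be told apart.

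Other genes of fat formation went both ways between dorsal and ear dermis. Of the 11 adipogenic factors compared, 3 were higher and 2 lower, where 11.7% of all genes compared were higher and 7.05% lower. Cebpb stood at 199 against 28.9 FPKM and Cebpd at 38.8 against 13.2 FPKM, while Srebf1 stood at 20.4 against 50.9 FPKM. Cebpb and Cebpd are also early response genes. Pparg stood at 4.84 FPKM in dorsal and 11 in ear dermis. Of 13 genes of triglyceride synthesis none was higher and 2 were lower, Gpam, the first acyltransferase of triglyceride assembly (5.90 against 15.2 FPKM), and Agpat2, the next acyltransferase (10.3 against 22.6 FPKM).

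The counts of this paragraph stand beside 11.7% of all genes compared that were higher in dorsal than in ear dermis and 7.05% that were lower. Of 12 genes of lipid droplets and lipolysis, 1 was past the size rule. This was G0s2, an inhibitor of the main triglyceride lipase, at 7.97 against 61.1 FPKM. Among 8 genes of fatty acid uptake, Fabp5, the epidermal relative of Fabp4, was higher at 98.8 against 39.5 FPKM. Fabp5 stood at 295 FPKM in dorsal epidermis, and its part in the dermal value through keratinocyte RNA was not tested. Among 11 adipokines and receptors, Rarres2, the chemoattractant chemerin, was higher (429.6 against 202 FPKM), while its receptor Cmklr1 (12.3 against 32.8 FPKM) and Rbp4, a retinol carrier (8.85 against 36.7 FPKM), were lower. Of 10 progenitor genes, 4 were higher and 2 lower. Pi16 stood at 137 against 32.1 FPKM. Dlk1, a brake on adipocyte formation, stood at 0.432 against 13.5 FPKM, and Zfp521, another such brake, at 6.17 against 22.3 FPKM. Cd24a, among the 4 higher, stood at 90.7 against 27.3 FPKM, and at 198 FPKM in dorsal epidermis. The part of keratinocyte RNA in its dermal value was not tested.

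Koa ear dermis set against dorsal dermis shares both libraries with the comparisons above. Of 3 members compared 1 passed the size rule, downward, against 15.6% of 14223 genes (5.94% upward and 9.63% downward). This was Angptl4, with a difference of -2.32 and a ratio of 0.187 (0.176 to 0.199). Fabp4 differed by -0.72, with a ratio of 0.602 (0.553 to 0.654), and Lpl by -0.53. For Angptl4 and Fabp4 the level of Koa ear dermis lay between those of WT ear and dorsal dermis, and for Lpl it stood beside WT ear dermis. Retn at about 1 fragment and Cfd at 1 fragment in Koa ear dermis stayed below dorsal dermis, with ratios of 0.0526 (0.00178 to 0.514) and 0.0650 (0.00154 to 0.428).

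In tail dermis Fabp4 was the member that stood out. Of 4 members compared with WT ear dermis, 2 passed the size rule upward, Fabp4 with a difference of 2.90 and Angptl4 with 1.26, against 33.3% of 13666 genes in either direction, 6.32% upward and 27% downward. Lpl differed by 0.93 and Adig by 0.24. Against dorsal dermis Fabp4 was higher by 1.52 and Angptl4 lower, at -2.56, so 2 of 4 passed the size rule where 36.1% of 14063 genes did (7.05% upward and 29% downward). No counting interval can be given for the tail. Its markers of other cells differed too: 8 of 10 endothelial markers were past the size rule upward against ear dermis, with a summed level of 105 against 34.5 FPKM. Of 10 macrophage markers 9 were past it downward, with a sum of 72.7 against 1452 FPKM. Among the endothelial markers Pecam1 stood at 30.4 against 7.69 FPKM and Tie1 at 10.7 against 1.46 FPKM. Stress genes summed to 8169 against 426 FPKM. The part of these cells and genes in the levels of Fabp4 and Angptl4 was not tested.

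**Figure D3:**
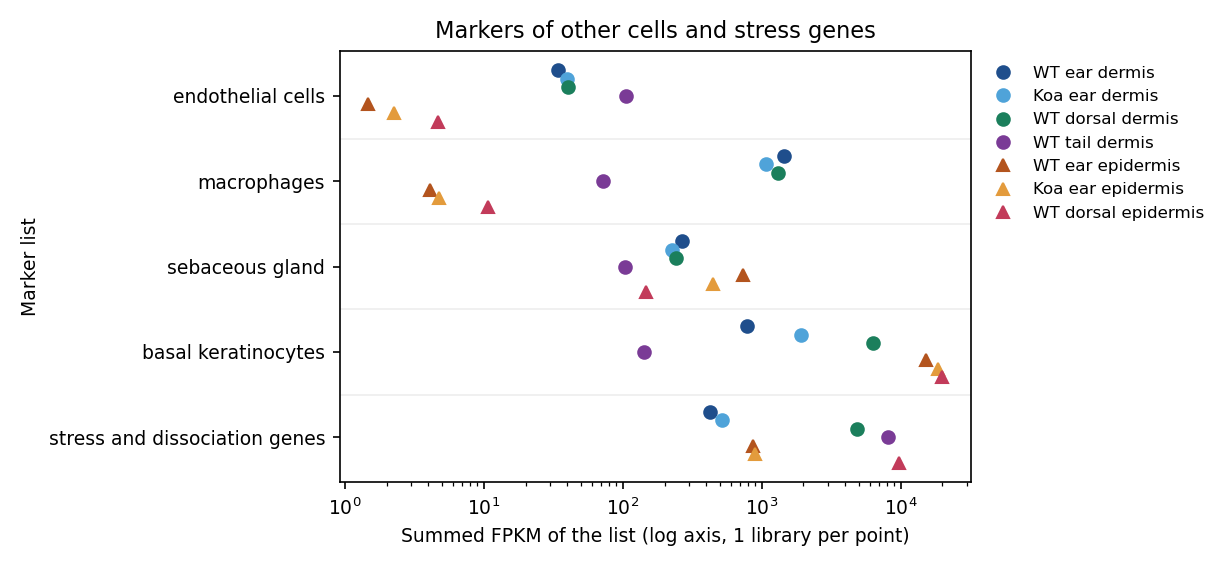
Summed FPKM of the markers of 4 other cell types and of stress genes (rows) in each library (colours; circles are dermis, triangles epidermis) on a log axis. Tail dermis had the highest endothelial sum (105 FPKM) and the lowest macrophage sum of the dermal libraries (72.7 FPKM), and the dorsal and tail libraries had the highest stress sums.

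In the tail other adipogenic genes again went both ways. Against ear dermis Cebpb (424 against 28.9 FPKM) and Cebpd (171 against 13.2 FPKM) were higher, and Pparg (3.47 against 11 FPKM) was lower. Of 13 genes of triglyceride synthesis 5 were lower and none higher. The list's median of -0.60 lay near the -0.51 of all genes, of which 27% were lower. The widest were Dgat2, the last enzyme of triglyceride assembly (2.1 against 15.5 FPKM), and Me1, a source of reducing power for lipid synthesis (3.39 against 18.6 FPKM). G0s2 (5.74 against 61.1 FPKM) and Cd36 (3.95 against 24.9 FPKM) were lower. Pi16 stood at 1180.4 against 32.1 FPKM, the widest difference of the progenitor genes. Gpihbp1, the endothelial protein that holds lipoprotein lipase on the capillary wall, stood at 2.51 FPKM in tail dermis and 0.787 in ear dermis, within the size rule.

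Between layers, Lpl and Fabp4 were higher in dermis than in epidermis in WT ear, Koa ear and dorsal skin. Tail skin had no epidermal library. Of 4 members compared in WT ear, 2 were past the size rule upward in dermis and 1 downward, against 35.6% of 13840 genes (21.3% upward and 14.4% downward). Fabp4 had a ratio of dermis to epidermis of 83.2 (41.2 to 190) there, resting on about 8 epidermal fragments, and Lpl one of 2.93 (2.84 to 3.02). Adig was the lower gene. In Koa ear the counts were the same, against 33.1% of 13954 genes (20.4% upward and 12.7% downward), with ratios of 17.3 (13.1 to 23.3) for Fabp4 and 4.5 (4.33 to 4.67) for Lpl. In dorsal skin 3 of 4 were past the rule upward and none downward, against 24.4% of 13896 genes (16.1% upward and 8.27% downward). They were Lpl with a ratio of 21.7 (20.3 to 23.2), Fabp4 with 4.54 (4 to 5.16) and Angptl4 with 3.24 (3.07 to 3.41). Angptl4 was within the size rule in both ears, with differences of 0.63 in WT and 0.65 in Koa.

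**Figure D4:**
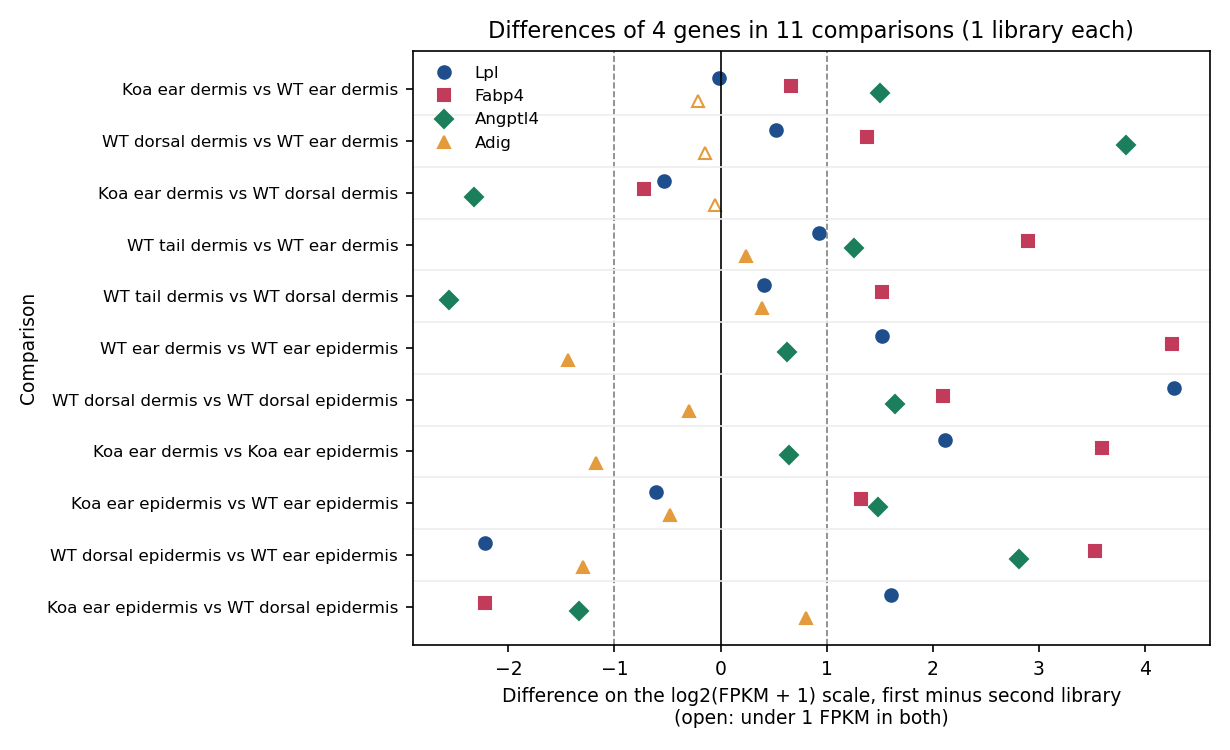
Difference on the log2(FPKM + 1) scale of Lpl, Fabp4, Angptl4 and Adig in each of the 11 comparisons of 2 libraries (rows; first minus second), with dashed lines at the size rule of 1 and open symbols where a gene was under 1 FPKM in both. Angptl4 lies right of the upper line for Koa against WT ear in both layers (1.5 and 1.48), and Lpl lies on opposite sides of 0 for dorsal against ear dermis (0.52) and epidermis (-2.22).

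Within epidermis the members did not move together. In Koa against WT ear epidermis 2 of 4 members compared passed the size rule, both upward, against 3% of 12062 genes (2.15% upward and 0.854% downward). Angptl4 had 6.78 FPKM in Koa and 1.79 in WT, a difference of 1.48 and a ratio of 3.78 (3.26 to 4.42), and Fabp4 at 2.2 against 0.283 FPKM, a difference of 1.32 and a ratio of 7.75 (3.58 to 18.5). Lpl was lower, with 24.4 FPKM in Koa and 37.8 in WT and a ratio of 0.646 (0.619 to 0.674), and Adig differed by -0.48. Angptl4 was past the size rule in Koa against WT ear in both layers. The layers share no library, but the animals behind them are not given, so they are not replicates of the genotype. At a pseudocount of 5 FPKM Angptl4 passed the rule in neither layer (0.96 in dermis and 0.79 in epidermis). Fabp4 in epidermis was at 0.45 with that pseudocount.

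In dorsal against WT ear epidermis all 4 members compared passed the size rule, 2 in each direction, against 16.9% of 12500 genes (11.5% upward and 5.47% downward). Fabp4 (13.9 against 0.283 FPKM) and Angptl4 (18.6 against 1.79 FPKM) were higher, and Lpl (7.34 against 37.8 FPKM) and Adig were lower. Koa ear against dorsal epidermis, which shares both libraries, gave Lpl higher and Fabp4 and Angptl4 lower, 3 of 4, against 12.3% of 12489 genes (3.52% upward and 8.75% downward). Endothelial markers, all 10 under 1 FPKM in both ear epidermal libraries, summed to 1.48 FPKM in WT ear, 2.25 in Koa ear and 4.67 in dorsal epidermis, the order of Fabp4. Macrophage markers (4.11, 4.8 and 10.8 FPKM), fibroblast markers (71.9, 96.6 and 127 FPKM) and both keratinocyte lists had that order too, so it is not particular to endothelial markers. Sebaceous gland markers summed to 739, 444 and 146 FPKM in the same libraries, the order of Lpl and Adig, which genes of triglyceride synthesis also had (1013, 793 and 275 FPKM). Pparg, which sebocytes also express, stood at 34.7, 21.5 and 2.72 FPKM. All 10 stress and dissociation genes were past the size rule upward in dorsal against WT ear epidermis, with a median of 3.19 and a summed level of 9798 against 865 FPKM. The part of these cells and of the stress genes in the members' levels was not tested.

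The members did not share one order over libraries. Over the 6 libraries other than tail, Pearson's r on the log2(FPKM + 1) scale was 0.71 between Fabp4 and Angptl4, 0.53 between Fabp4 and Lpl, 0.14 between Lpl and Angptl4, and -0.98 between Fabp4 and Adig. These 6 points share layer, position and genotype, and the values are descriptions. The genes most like the mean profile of the 4 members that reached 1 FPKM were Ms4a4b, Lgi2, Col6a5, Cd69, Sult1e1, Mmp9, Gimap4, AW112010, Tdo2 and Mnda, with r between 0.982 and 0.995. Fabp4 and Adig ran opposite ways and largely cancel in this mean, so it is not the profile of any single member. The gene most like Fabp4 alone was Slco2b1 (r of 0.996), and for Lpl it was Por (0.991). For Angptl4 it was 2810055F11Rik (0.998) and for Adig Reep6 (0.996). Of 5196 genes considered, 40 had an r of at least 0.95 with that profile. Among them Lgi2 stood at 29.6 FPKM in dorsal, 4.62 in Koa ear and 1.29 in WT ear dermis and at most 0.0916 in epidermis. The genes most like Adipoq were Rap1b, Thbd, Daglb, Thbs2 and Pmp22, with r between 0.988 and 0.999, for a gene that never passed 15 fragments. An r of at least 0.95 with Adipoq was reached by 117 genes.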

How the data were processed

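The authors deposited 1 table of FPKM values per gene symbol, with 1 column for each of 7 libraries of sorted skin cells. The submitters' processing notes name TopHat2 2.0.13, Cufflinks 2.2.1 and the builds GRCm38 and mm9. The role of each build, the gene annotation and the strand setting are not given in the sources used here. In 2 column names a letter is missing, and these were matched to sample titles. The collagen genes Col1a1, Col1a2 and Col3a1 were left out, since some dermal libraries list them at 0 and no epidermal library does. Positions and synonyms come from RefSeq GRCm38.p6.

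With 1 library per group no test was possible. Differences were taken as log2(FPKM + 1), over genes with at least 1 FPKM in 1 of 2 libraries, in 11 comparisons. Depth came from single-transcript genes: the number of mapped fragments and a common length offset (210 nt) were chosen so that low values gave whole fragments. Between 78.1% and 83.7% of those values then lay within 0.1 of a whole number. Member fragments use the first GENCODE transcript. Where a gene has transcripts of other lengths, the fragment number is approximate. A count of 0 was taken to allow 3 fragments, and folds against it leave out the counting error of the other library. The depth recovery and the size rule were run on fragments simulated under the same length model with counting error only. Such a run cannot show how libraries of a group vary.

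Every member is named. Of each other list, up to 3 compared genes with the widest difference in a dermal comparison are named, with 10 genes most like the members and 5 most like Adipoq. Further genes (Gpihbp1, Fabp5 in epidermis, Cd24a, Pparg and Dcn beside the results, and Lgi2) were chosen after seeing their values. The members and the 17 other lists were chosen with earlier results of these data known. The lists of fibroblasts, cartilage and red blood cells served as a check of cell content. Python 3.11.15, pandas 2.3.3, numpy 2.4.6, scipy 1.17.1 and matplotlib 3.10.9 were used.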

Additional observations from a re-analysis of the deposited data

Results flagged for a closer look

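Lpl went opposite ways in the layers under the same contrast. From ear to dorsal skin of WT mice it differed by 0.52 in dermis and by -2.22 in epidermis. Between Koa ear and dorsal skin it differed by -0.53 in dermis and by 1.61 in epidermis. Both contrasts use the same dorsal libraries, and the difference between layers was not tested, as each group has 1 library. Sebaceous gland markers summed to 266 FPKM in WT ear dermis and 242 in dorsal dermis, and to 739 and 146 FPKM in the matching epidermal libraries. Their part in the levels of Lpl was not tested.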

How the results depend on the processing

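Of 72 counts of members past the size rule under other settings, 68 stayed within 1.5 times the value given. At a pseudocount of 5 FPKM the count fell to 0 for Koa against WT ear dermis (Angptl4 at 0.96), to 1 for tail against ear dermis (Angptl4 at 0.79) and to 0 for Koa against WT ear epidermis (Angptl4 at 0.79, Fabp4 at 0.45). With at least 5 FPKM required it was 1 for the last comparison. No called difference changed sign under any setting run. Over all settings Angptl4 between dorsal and ear dermis ranged from 2.97 to 4.13 and Fabp4 from 1.17 to 1.46, and Fabp4 between tail and ear dermis from 2.72 to 3.32. Lpl between tail and ear dermis reached 1.35 with median ratio scaling. Angptl4 between Koa ear and dorsal epidermis was within the size rule under 1 setting, at -0.78. Adig between ear dermis and epidermis of WT was -0.62 at a pseudocount of 5 FPKM. Adig also came within the rule under 1 setting between Koa ear dermis and epidermis (-0.44) and between dorsal and WT ear epidermis (-0.58). Between Koa ear and dorsal epidermis it passed the rule under 2 settings, reaching 1.24. Lpl between the ear dermal libraries changed sign around 0, as did Adig between Koa ear and dorsal dermis. The share of higher genes among those past the size rule was 62.5% for dorsal against ear dermis and 47.3% with equal totals. It was 38.1% and 52.1% for Koa ear against dorsal dermis, and 67.7% and 32.5% for dorsal against ear epidermis. It was 28.7% and 79.6% for Koa ear against dorsal epidermis. For tail it was 19% against ear dermis (39% with median ratio scaling) and 19.5% against dorsal dermis (32.8%). For dermis against epidermis it was 59.7% in WT ear and 66.1% in dorsal skin, and 72.5% and 92.3% with equal totals. With the keratinocyte share subtracted from dermis and no rescaling, it was 11.4% for dorsal against ear dermis, 86.8% for Koa ear against dorsal dermis, 24.4% for dorsal dermis against epidermis, 50.5% for Koa against WT ear dermis (61.6% without) and 49.9% for Koa ear dermis against epidermis (61.5% without). The medians of all genes then lay at -0.78, 0.72, -0.88, -0.07 and -0.29. Counting depth limits the 6 members under 1 FPKM. No paired analysis was possible because each group has 1 library.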

Other observations

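Of 9 markers of brown and beige fat, 6 reached 1 FPKM in WT ear dermis, 6 in Koa ear dermis, 7 in dorsal dermis and 5 in tail dermis. Of all symbols, 58.7%, 59.3%, 60.3% and 51.5% did so in the same libraries, so these counts do not set the list apart. Ucp1, the uncoupling protein that defines brown adipocytes, stood at no more than 0.14 FPKM in any library. Of 8 genes of this list compared between dorsal and WT ear dermis, 1 was higher (Cox8b) and 1 lower (Prdm16). Of all genes compared, 11.7% were higher and 7.05% lower. Prdm16 stood at 0.27 FPKM in dorsal and 2.71 in WT ear dermis. Cox8b, a respiratory chain subunit of brown fat and muscle, stood at 9.69 FPKM in dorsal dermis. It was listed at 0 in both ear dermal libraries and stood at 0.63 FPKM in tail dermis. Of 7 skeletal muscle markers compared, 4 were past the size rule upward in dorsal against WT ear dermis, where 11.7% of all genes were, and the list summed to 47.2 against 26 FPKM. Their part in the level of Cox8b was not tested. Cidea, a droplet protein of brown fat and sebocytes, stood at 46.4 FPKM in WT ear epidermis and 5.21 in WT ear dermis.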
